A study of Mus musculus with 514 samples.

Results

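Loss of the orphan nuclear receptor Nr5a2 from both the egg and the embryo was examined at the late 2-cell (L2C) stage of the mouse, in RNA-seq of polyadenylated RNA from single embryos with reads over the full length of the transcripts. The comparison was defined by its labels, and earlier results of these data were known when it was chosen. It sets 10 L2C libraries labelled mz_NrKO against 7 labelled mz_DHet. These are 17 of 46 L2C libraries and of 263 full-length libraries analysed, in a series of 514 samples. In mz_NrKO embryos Nr5a2 is knocked out both maternally and zygotically. The mz_DHet controls are not wild type: per the file headers they are heterozygous for the deletion of Nr5a2 and also of the related receptor gene Esrrb. The Esrrb genotype of mz_NrKO is not stated here, so any difference in Esrrb from mz_DHet cannot be told apart from Nr5a2 loss. All 10 mz_NrKO embryos and 2 mz_DHet embryos were collected on 8 March 2022, and the other 5 mz_DHet embryos on 22 May 2022. The main counts of genes are therefore given with and without the collection date as a factor, and with and without mz_NrKO replicate 6. For single genes these values are given where they bear on the call. Counts of mz_NrKO against z_NrHet all include replicate 6. Other L2C groups are used beside them: 7 z_NrHet (Nr5a2 heterozygous) and 6 z_NrKO (zygotic knockout of Nr5a2 alone) embryos, all of 8 March, 10 mz_EKO embryos (Esrrb knockout, 8 of 8 March and 2 of 17 June) and 6 mz_DKO embryos (both receptors, 4 of 8 March and 2 of 22 May). No Cre driver, mother or litter is named in the labels used here. Embryos of a group may therefore be siblings, and p-values cover only the variation among the embryos sequenced.

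Nr5a2 binds DNA as a monomer at sites that extend the nuclear receptor half-site AGGTCA, and is known for control of bile acid and steroid synthesis in liver and ovary. In the mouse embryo the first large wave of transcription from the embryonic genome takes place during the 2-cell stage, after a short burst of genes such as the Zscan4 family, while maternal transcripts are degraded. The series title asks whether Nr5a2 is needed for this activation or for later development to the morula.

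Values are TPM (RNA abundance per gene, scaled for length and library), made by the authors, so read depth is unknown. Fold changes are on the log2(TPM + 1) scale, which understates those of low genes. A gene is called at an adjusted p under 0.05 in limma (Benjamini-Hochberg over all 14147 genes tested), with all 46 L2C libraries sharing one estimate of the spread. Between 13784 and 14881 genes exceeded 1 TPM in the mz_DHet libraries and between 13802 and 15941 in the mz_NrKO libraries.

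The deletion itself could not be read from these values, which are per gene and not per exon. Nr5a2 was 532 and 329 TPM in the mz_DHet embryos of 8 March and 481 to 648 TPM (median 605) in those of 22 May. In mz_NrKO it ranged from 113.8 TPM (replicate 6) through a median of 533 to 799 TPM, a span that contains every mz_DHet library (log2 fold change 0.03, adjusted p = 0.99 in limma). Esrrb stood at 16.4 ± 7.84 TPM in mz_DHet (SD, n = 7) and 18.8 ± 15.1 in mz_NrKO (SD, n = 10; limma adjusted p = 0.996).

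Of the mz_NrKO libraries, replicates 3, 6 and 8 lay furthest from the controls in genes that change with the stage. Only replicate 6 stood apart from its group by the gap rule given in the closing sections. In control embryos outside the comparison, 2830 genes were at least 4-fold higher at L2C (z_NrHet) than at the early 2-cell stage (E2C; mz_Nrpp, with wild-type or floxed alleles), and 3214 were at least 4-fold lower. They are called rising and falling genes here. The mean log2(TPM + 1) of the rising genes was 6.01 to 6.24 in the 7 mz_DHet libraries, but 4.83 in mz_NrKO replicate 6, 5.51 in replicate 8 and 5.77 in replicate 3. The falling genes averaged 2.22 to 2.75 in mz_DHet, against 4.10, 3.61 and 3.44 in those 3 libraries. Replicate 6 thus held fewer transcripts of the late stage and more of the early stage, though E2C mz_NrHet libraries lay far beyond it, at 2.36 to 3.00 and 5.31 to 5.65. Its TPM correlated with the median of its group at r = 0.772, against 0.862 to 0.902 for the other mz_NrKO libraries, across genes. The 7 remaining mz_NrKO libraries had rising-gene means of 5.98 to 6.21, which overlap the controls, and falling-gene means of 2.29 to 3.13, of which those of replicates 1, 2, 4 and 10 exceed the highest control. Such libraries were not limited to mz_NrKO: mz_EKO replicates 9 (5.49 and 3.31) and 10 (5.70 and 3.40), also of 8 March, lay beside replicates 8 and 3.

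**Figure D1:**
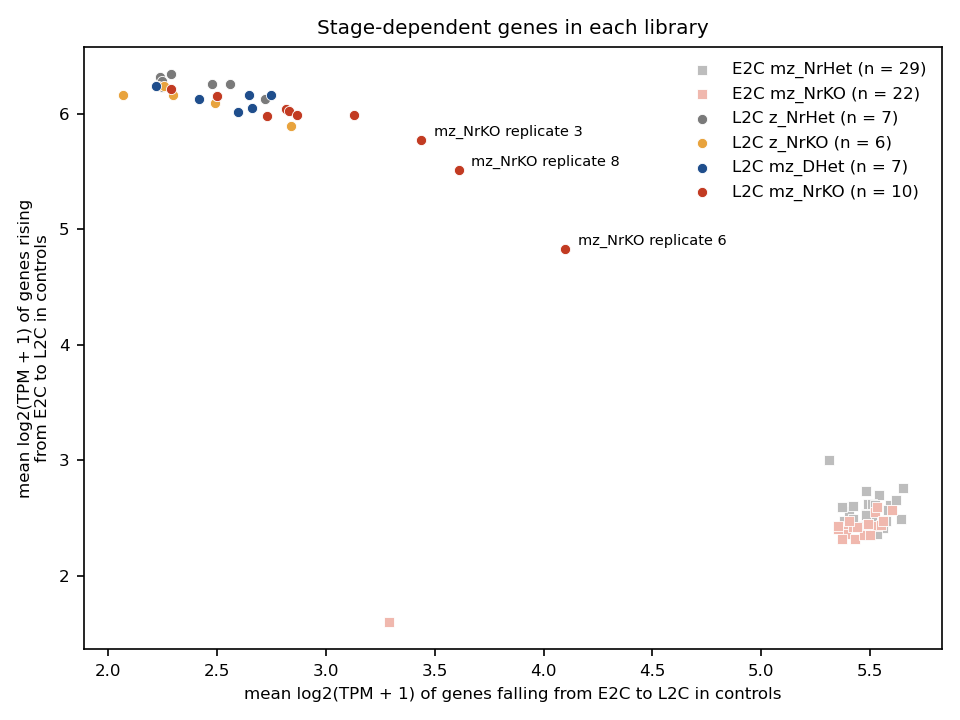
Each point is a library, placed by its mean log2(TPM + 1) over 3214 genes that fall (x axis) and 2830 genes that rise (y axis) from E2C to L2C in controls; squares are E2C and circles L2C embryos. Replicates 3 and 8 of mz_NrKO lie between the other L2C libraries drawn and mz_NrKO replicate 6, which is at 4.83 for rising and 4.10 for falling genes. Replicates 9 (5.49 and 3.31) and 10 (5.70 and 3.40) of mz_EKO, which are not drawn, had means near those of replicates 3 and 8.

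With the date in the fit, 18 genes were lower in mz_NrKO embryos and 0 were higher, which is 0.127% of the genes tested, while 1143 genes had an unadjusted p under 0.05 where 707 would be expected by chance. The 18 are Ajuba, Atg16l2, Ccdc137, Cers2, Eci1, Ecsit, Gm37795, Gm6091, Grk2, Igf2r, Itpkc, Marchf9, Proser2, Rffl, Tlk2, Tmem191c, Tulp1 and Wdyhv1, with log2 fold changes from -3.88 to -1.19 and a median of -2.47. Over all genes the median was 0.017. Without replicate 6, 15 genes were called, all lower (0.106%), and 14 of the 18 were among them; the other was Tbc1d1 (-1.86, limma adjusted p = 0.0473, named after its value was seen). Ajuba, Atg16l2, Ecsit and Itpkc lost their call. All 18 were negative and called in the fit without the date, and also without both the date and replicate 6 (-4.14 to -0.90). The date itself had no called effect on any of the 18. The groups did not overlap for 10 of the 18, against 65 of 14147 genes with every mz_NrKO library below every mz_DHet library (0.459%); as the 18 were chosen on these same libraries, this describes them and tests nothing further. The calls lean on the 2 control embryos that share the date of the mutants: 4 genes were called without mz_DHet replicate 6 and 8 without replicate 7, the 2 controls of 8 March. The mz_NrKO and mz_DHet libraries fitted alone with the date gave 0 calls (740 below 0.05 before adjustment); that fit leaves out both the spread of the other groups and the mz_DKO libraries, which have both dates. For 8 March alone, the L2C libraries of all groups of that date were fitted together, so the spread of the other groups was kept. With 10 mz_NrKO against 2 mz_DHet, limma called 0 genes. Before adjustment 686 were below 0.05, where 707 would be expected by chance. The 18 genes kept log2 fold changes of -3.97 to -1.09 there, each with an unadjusted p below that level, and the smallest adjusted p was 0.143. These libraries also chose the 18, so those values describe them and test nothing further.

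Igf2r encodes the mannose 6-phosphate receptor, which sorts lysosomal enzymes and removes the growth factor IGF2. Its level was 107.3 and 87.0 TPM in the mz_DHet embryos of 8 March and 55.7 to 112 TPM (median 100.8) in those of 22 May. In mz_NrKO it ran from 8.45 (replicate 6) through a median of 23.7 to 36.4 TPM. No mutant embryo reached the lowest control, and the log2 fold change was -2.10 ± 0.39 (SE; limma adjusted p = 0.00598), or -1.95 without replicate 6 (adjusted p = 0.00899).

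Cers2, a ceramide synthase that makes very long-chain ceramides, had the smallest adjusted p of the comparison. It stood at 152 and 153 TPM in the 8 March controls and at 106.2 to 260 TPM (median 184) in the 22 May controls. The mz_NrKO embryos lay between 14.3 and 72.5 TPM with a median of 32.4, again with no overlap. The log2 fold change was -2.49 ± 0.40 (limma adjusted p = 0.00194), and -2.52 without replicate 6 (adjusted p = 0.00242).

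Tulp1, a tubby-like protein best known from photoreceptors, went from a low level to almost none. Controls held 8.97 and 29.7 TPM on 8 March and 11.5 to 62.8 TPM on 22 May, and 4 of 10 mz_NrKO libraries were listed at 0, the highest being 2.51 TPM. The log2 fold change was -3.86 ± 0.68 (limma adjusted p = 0.00539). Atg16l2, a paralogue of the autophagy factor Atg16l1, behaved in a similar way, from 13.2 and 74.2 TPM in the 8 March controls to 0 to 7.07 TPM in mz_NrKO (-3.88 ± 0.86, limma adjusted p = 0.0406). Without replicate 6 Atg16l2 missed the threshold at an adjusted p of 0.0692.

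Tlk2 encodes a Tousled-like kinase, which acts on the histone chaperone Asf1 during chromatin assembly. It stood at 146 and 104.8 TPM in the 8 March controls and at 129 to 205 TPM in the others. Of the mz_NrKO embryos, 9 lay between 13.7 and 82.6 TPM, below every control, while replicate 10 was at 119 TPM (log2 fold change -2.59 ± 0.47, limma adjusted p = 0.0056). Ajuba, a LIM-domain protein that binds and restrains the Hippo kinases Lats1 and Lats2, was 97.7 and 115 TPM in the 8 March controls and 83.3 to 151 TPM in the others. All 10 mz_NrKO embryos were lower, from 5.93 to 69.9 TPM with a median of 34.5 (-2.35 ± 0.53, limma adjusted p = 0.0447). Without replicate 6 its adjusted p was 0.0711.

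Mitochondrial and protein-turnover genes made up part of the rest. Eci1, an enoyl-CoA isomerase of fatty acid oxidation, was 158 and 185 TPM in the 8 March controls and 115.5 to 156 TPM in the others, against 47.1 to 115.6 TPM in mz_NrKO (-1.24 ± 0.26, limma adjusted p = 0.0167). Ecsit, an assembly factor of respiratory complex I, was 170 and 175 TPM against 38.9 to 104.7 TPM, with no overlap (-1.19 ± 0.27, adjusted p = 0.0447, and 0.0711 without replicate 6). Rffl and Marchf9 encode ubiquitin ligases, and Wdyhv1 encodes an amidase of the N-degron pathway. Rffl was 98.4 and 90.0 TPM in the 8 March controls and 55.3 to 104.8 TPM in the others. Its median was 15.3 TPM in mz_NrKO, where replicate 10, at 60.3 TPM, exceeded the lowest control (-2.48 ± 0.51, limma adjusted p = 0.0161). Wdyhv1 was 79.4 and 67.4 TPM in those controls and 13.7 to 39.9 TPM in mz_NrKO, and no mutant embryo reached any control (-1.95 ± 0.38, limma adjusted p = 0.00674).

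Ccdc137 and Proser2 code for proteins of little known function, and neither overlapped between groups. Ccdc137 was 176 and 146 TPM in the 8 March controls, 143 to 251 TPM in the others and 35.1 to 111.1 TPM (median 65.5) in mz_NrKO (-1.52 ± 0.28, limma adjusted p = 0.0056). Proser2 was 45.0 to 154 TPM over all 7 controls and 5.52 to 38.3 TPM in mz_NrKO (median 10.0) (-2.56 ± 0.50, limma adjusted p = 0.007). Marchf9 was low throughout, at 13.0 and 10.7 TPM in the 8 March controls, 3.78 to 9.90 TPM in the others and 0 to 6.11 TPM in mz_NrKO, where 9 of 10 lay below every control (-2.61 ± 0.52, limma adjusted p = 0.0093). Tmem191c, a predicted membrane protein, was 171 and 143 TPM in the 8 March controls, 56.7 to 162 TPM in the others and 7.88 to 65.2 TPM in mz_NrKO, with 9 of 10 below every control (-2.46 ± 0.44, limma adjusted p = 0.00539).

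Grk2, a kinase that turns off G-protein-coupled receptors, and Itpkc, an inositol trisphosphate kinase, overlapped between groups. Grk2 was 31.5 to 107.9 TPM in controls and 2.53 (replicate 6) to 42.7 TPM in mz_NrKO, with 7 of 10 below every control. Itpkc was 90.1 to 185 TPM in controls and 25.9 to 124 TPM in mz_NrKO, with 9 of 10 below. Gm6091 is annotated as a processed pseudogene, so its reads may be shared with its parent gene, and Gm37795 as a transcript still to be verified that overlaps the microRNA gene Mir34a; both are given as uncertain. The exons of Atg16l2, Cers2, Ecsit, Itpkc, Rffl, Tlk2 and Tmem191c overlap an annotated gene on the opposite strand, those of Tmem191c also overlap Gm49573 on the same strand, and whether the counting used strand is not given in the sources used here.

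**Figure D2:**
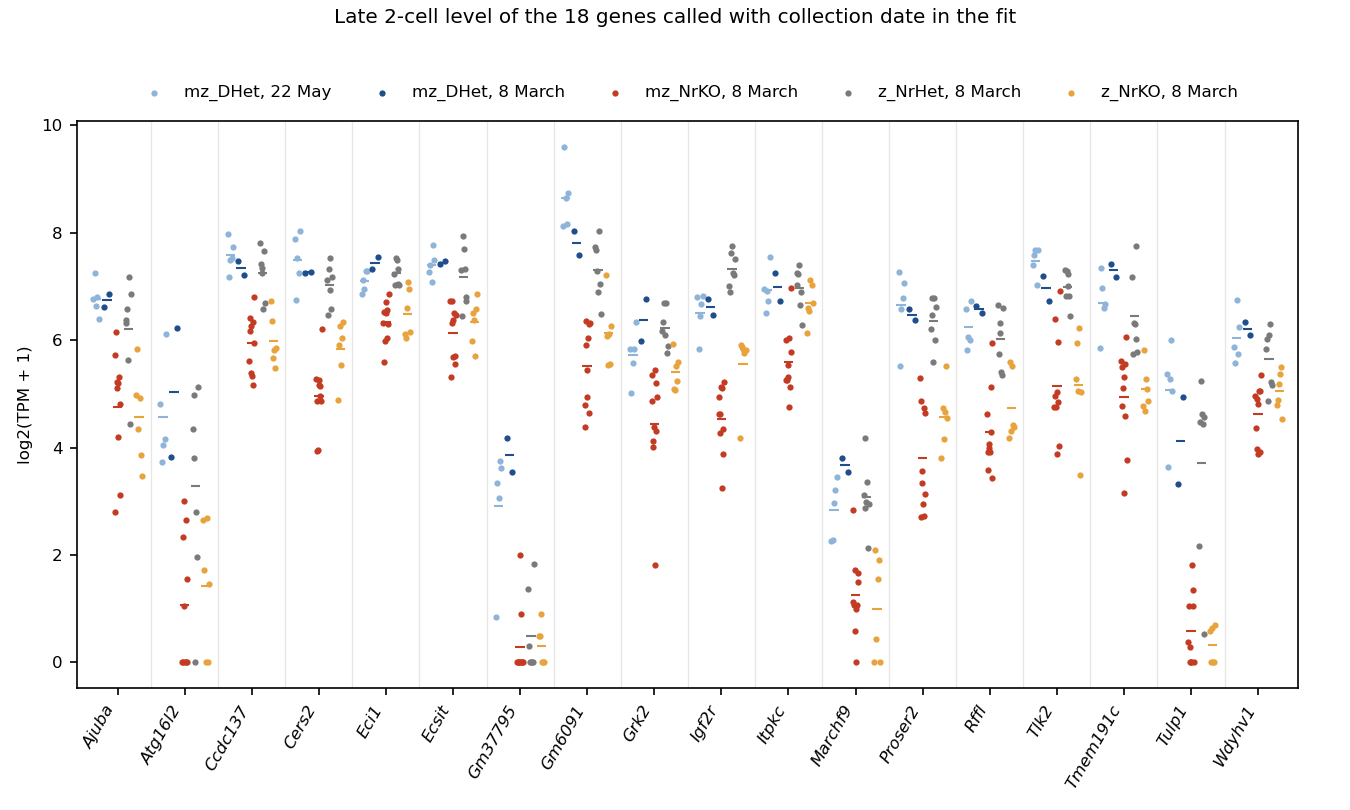
Each point is the log2(TPM + 1) of a gene in an L2C library, grouped by genotype and collection date, with a bar at each group's mean. For Igf2r the mz_NrKO libraries reach 36.4 TPM at most, below all 7 mz_DHet libraries, and the mz_DHet libraries of the 2 dates intermingle for most of the 18 genes.

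Of the 18 genes, 14 have a RefSeq promoter entry (build GRCm38.p6; 250 bases before to 50 after the start). The windows were searched on both strands for AAGGNCA, the core of the Nr5a2 site, and for the longer TCAAGGNCA, which contains it. The core was found in 5 of the 14 genes (35.7%), against 18.9% of the 9567 tested genes with an entry and 22.7% of all genes with one. The longer form was in 1 of the 14 (Tmem191c), against 1.37% of the tested genes. The 5 stretches are shown because they belong to genes that fell together. They are written 5′ to 3′ on the strand of the gene, with the match in capitals; each match reads on the opposite strand.
Tlk2: cttgaccctaTGACCTTttgtgtcagt
Ajuba: atctgcccctTGACCTTttacgtcctg
Tmem191c: tagcaaaggaTGACCTTGAactcctgatc
Eci1: tggctaacctTGGCCTTgtggggcggg
Tulp1: agggccactcTGGCCTTttactctcca
In mm10 they lie at chr11:105178706-105178732 (Tlk2, plus strand), chr14:54577717-54577743 (Ajuba, minus), chr16:17276104-17276132 (Tmem191c, plus), chr17:24426598-24426624 (Eci1, plus) and chr17:28365402-28365428 (Tulp1, minus). The matches begin 91, 72, 186, 75 and 202 bases before the annotated start, in that order. A match is a description of the letters only, and no binding was measured here.

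The same 18 genes were read in embryos outside the contrast that chose them, although all L2C libraries entered its filter and its spread. In zygotic knockouts, z_NrKO was compared with z_NrHet, all of 8 March: 5 of the 18 were lower and called (Ccdc137, Igf2r, Marchf9, Tlk2 and Tulp1), where 0.0919% of all genes were called lower. All 18 had a negative fold change, with a median of -1.28. Igf2r was 162 ± 36.2 TPM in z_NrHet (SD, n = 7) and 49.7 ± 16.1 in z_NrKO (SD, n = 6), a log2 fold change of -1.76 ± 0.34 (limma adjusted p = 0.00885), and each z_NrKO embryo was below each z_NrHet embryo. Tulp1 was 18.5 ± 12.6 and 0.282 ± 0.311 TPM in the same groups, which overlapped, as the lowest z_NrHet embryo was at 0.441 TPM (-3.40 ± 0.58, limma adjusted p = 0.00593). Itpkc was among those that did not pass, at 127 ± 31.9 and 104.5 ± 25.7 TPM (-0.28 ± 0.27, adjusted p = 0.863). Gm37795 was near 0 in z_NrHet as well (0.626 TPM), so a fall could not be seen. The mean log2(TPM + 1) of the 18 genes lay at 4.31 to 4.75 in the 6 z_NrKO libraries and 5.30 to 6.19 in the 7 z_NrHet libraries, which do not overlap. The difference between the mz and the z effect was called for 0 of 14147 genes in limma (729 below 0.05 before adjustment). For the 18 it was negative in each, with a median of -0.94 and no adjusted p under 0.925. As the 18 were chosen for a low mz effect, which is part of this difference, its sign in them tests nothing further.

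Against z_NrHet, 7 control embryos of the same date, mz_NrKO had 242 genes lower (1.71%) and 184 higher (1.3%), and 17 of the 18 were lower and called, all but Gm37795. The mz_NrKO libraries are those that chose the 18 genes, so this is no independent reading. These controls differ from the mutants also in maternal genotype. The Esrrb genotype of neither group is stated here, and neither factor can be told apart from Nr5a2 loss. The controls themselves, mz_DHet against z_NrHet, had 0 calls in limma (591 below 0.05 before adjustment). Of the 18 genes, however, only 1 was lower in mz_DHet, with log2 fold changes of -0.69 to 3.21 and a median of 0.73. The median of the 18 in mz_NrKO was -2.47 against mz_DHet and -1.76 against z_NrHet. The mz_DHet libraries also took part in the choice of the 18. Compared directly, mz_NrKO was lower than mz_EKO at 23 genes (0.163%) and higher at 2 (38 in all without replicate 6, 15 of them higher), and the 23 include 6 of the 18: Cers2, Eci1, Gm6091, Igf2r, Tlk2 and Tmem191c. Here too the mz_NrKO libraries are shared with the choice of the genes. Against mz_DHet, all 18 were also negative in mz_EKO, with a median of -1.08, 13 below 0.05 before adjustment in limma and 0 called. In mz_DKO against mz_DHet all 18 were negative, with a median of -1.98, and 10 were called lower, where 0.141% of all genes were. The mz_DHet libraries are likewise shared with that choice.

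At E2C 12 of the 18 genes passed the filter. In mz_NrHet embryos Ajuba averaged 0.569 TPM and Igf2r 3.70 TPM (n = 29), while Rffl was already at 165 TPM. Of those 12, Tlk2 alone was called lower (log2 fold change -0.57, limma adjusted p = 0.0498), where 4.5% of all genes were called lower. That call was lost with a pseudocount of 0.1, without the filter and with median-of-ratios scaling. Rffl was at -0.12 (limma adjusted p = 0.589). At the 4-cell (4C) stage, with 5 mz_NrKO and 6 mz_DHet embryos, all 16 tested members were negative and 6 were called lower, against 0.414% of all genes (88 calls in either direction, between 27 and 91 with single embryos left out). The 6 became 3 without mz_NrKO replicate 1, mz_DHet replicate 5 or mz_DHet replicate 6. Tlk2 fell from 107.9 ± 44.7 to 15.0 ± 9.79 TPM at 4C (SD; -2.90 ± 0.38, limma adjusted p = 0.00046) and Igf2r from 120 ± 6.91 to 34.2 ± 13.9 TPM (-1.70 ± 0.29, adjusted p = 0.0038). Proser2, Tulp1, Gm6091 and Cers2 were the other 4. At the 8-cell (8C) stage, with 10 and 21 embryos, 11 of 16 were called lower, against 14.2% of all genes. Igf2r was 69.8 ± 41.5 TPM in 8C controls and 13.4 ± 9.54 in mutants (-1.91 ± 0.20, limma adjusted p = 3.64e-10), and Cers2 158 ± 57.97 and 46.6 ± 56.3 TPM (-2.16 ± 0.22, adjusted p = 1.49e-10). Ccdc137, lower at L2C, stood at 51.0 ± 15.4 and 48.9 ± 29.6 TPM at 8C (-0.15 ± 0.18, adjusted p = 0.578). Only Gm6091 had a positive value at 8C among the 16 (1.72, adjusted p = 0.0619). These are other embryos, the 4C ones of 17 June and 22 May and the 8C ones mostly of 8 March.

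**Figure D3:**
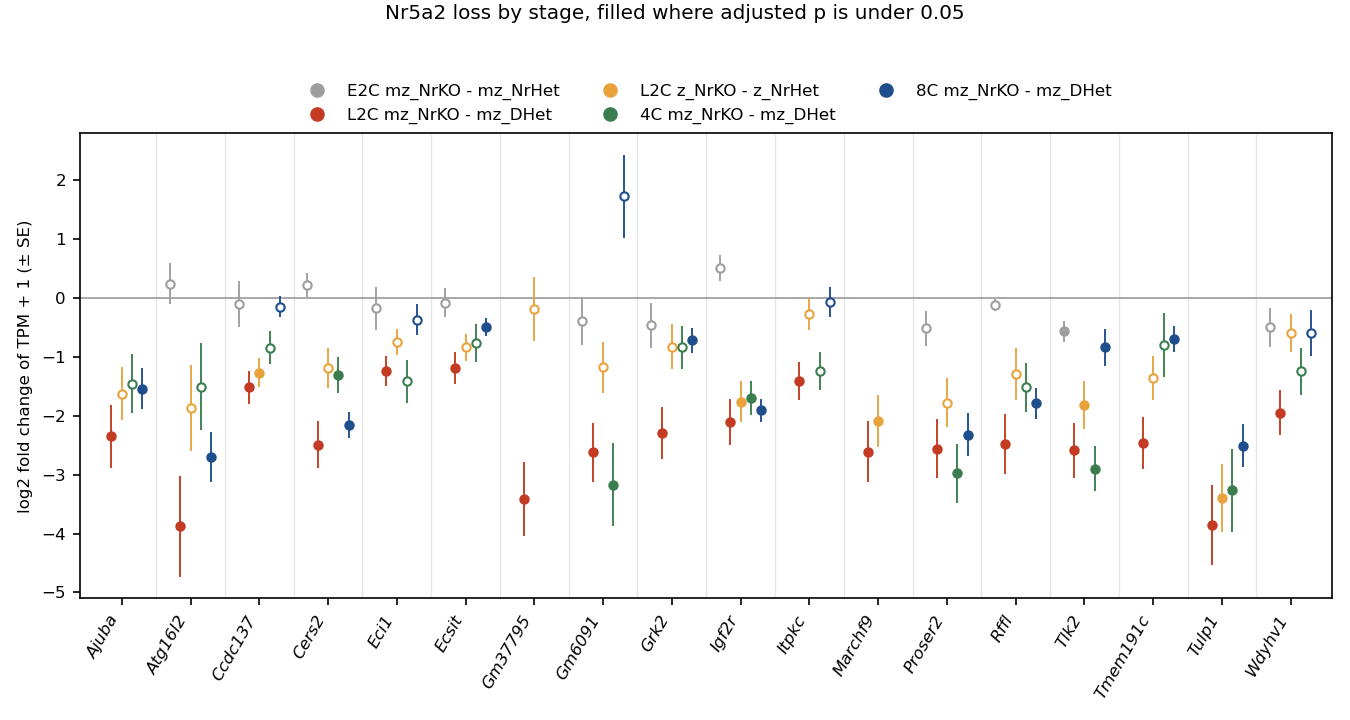
Log2 fold change of TPM + 1 with its SE for the 18 genes at E2C, at L2C in both knockout designs, at 4C and at 8C; filled points have an adjusted p under 0.05 and missing points were not tested. The L2C values chose the genes; Igf2r lies between -2.10 and -1.70 in the 4 comparisons from L2C on and at 0.50 at E2C.

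Reads with a unique molecular identifier, from the 5′ end of transcripts of the same embryos, are a second readout and not further replicates. With the date, limma called 0 of 11766 genes (853 below 0.05 before adjustment); 17 of the 18 were tested and all 17 were negative, with a median of -2.01. Without the date 9 of the 17 were called lower, where 1.33% of all genes were. Cers2 stood at 255 ± 75.5 TPM in mz_DHet (SD, n = 7) and 51.5 ± 24.5 in mz_NrKO (SD, n = 10), with 181 TPM as the lowest control and 98.6 TPM as the highest mutant. Tlk2 differed less in these reads than in full-length reads, at 27.0 ± 10.9 and 19.6 ± 10.4 TPM (log2 fold change -0.68, limma adjusted p = 0.849). The group means were also close for Rffl, at 11.8 ± 8.11 and 11.3 ± 10.7 TPM, and for Grk2, at 39.4 ± 29.6 and 31.8 ± 31.3 TPM. For full-length reads the authors' deposited table lists 33 genes lower and 75 higher at their thresholds (false discovery rate under 0.1, 1.5-fold, over 10 TPM in an L2C library). Of the 18 genes, 11 are among those 33 in the authors' deposited table, Cers2 at a log2 fold change of -2.20 and Tulp1 at -5.16. Tlk2 is not, at -1.11 with a false discovery rate of 0.548 in the authors' deposited table. For UMI reads the authors' deposited table lists 4 genes lower and 0 higher, with 3 of the 18 among them.

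Without the date as a factor the picture was much wider. Then 626 genes were lower (4.42%) and 901 higher (6.37%) in mz_NrKO. Leaving out replicate 6 as well left 413 lower (2.92%) and 691 higher (4.88%), and leaving out replicates 6 and 8 left 304 and 480. With the date in the fit the shares that held differed: 318 of the 626 (50.8%) had an unadjusted p under 0.05 in the same direction, against 182 of the 901 (20.2%). The effect of the date itself, 22 May against 8 March, was called in either direction for 76 of the 626 (12.1%) and for 472 of the 901 (52.4%). Of all genes 7.56% had such a call, and these were unevenly split: 6.15% were lower and 1.41% higher on 22 May. A control that is higher on 22 May can make a gene look lower in mz_NrKO, and the reverse. The 12.1% and 52.4% therefore have different backgrounds and cannot be set against each other directly. The median log2 fold change of the 901 was 1.39 without and 0.47 with the date, and that of the 626 was -1.13 and -0.78. The shares for the lower and the higher genes come from the same libraries, and their difference was not tested.

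The 10 largest falls without the date were Slc25a41, Hand1, S1pr2, Rflnb, Sox15, Slc8b1, Fkbp10, Spesp1, Tdgf1 and Lta, none of which passed with it. Sox15, a transcription factor of the placental lineage and embryonic stem cells, was 52.2 and 96.1 TPM in the 8 March controls and 60.0 to 331 TPM in the 22 May controls. In mz_NrKO it ran from 0 (replicate 6) through a median of 7.60 to 26.2 TPM, below every control of either date. Its log2 fold change was -3.89 ± 0.63 without the date (limma adjusted p = 0.000107) and -3.13 with it (adjusted p = 0.119). Against z_NrHet of the same date it was -2.82 (adjusted p = 0.00468). Without both the date and replicate 6, Sox15, Slc8b1 and S1pr2 stayed called, at -3.56, -3.68 and -4.13.

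Slc8b1, a mitochondrial sodium-calcium exchanger, and S1pr2, a receptor for sphingosine 1-phosphate, also had every mutant below every control. Slc8b1 was 31.5 and 76.8 TPM in the 8 March controls and 0 to 20.8 TPM in mz_NrKO (-3.88 without the date, limma adjusted p = 0.000468; -3.75 against z_NrHet, adjusted p = 0.00127). S1pr2 was 9.58 and 15.3 TPM in the 8 March controls, 11.7 to 86.9 TPM in the 22 May controls and 0 to 3.49 TPM in mz_NrKO. Its fall of -4.03 without the date was -2.42 with it, and the date effect was itself called (limma adjusted p = 0.0271). Tdgf1, a co-receptor for Nodal, was listed at 0 in all 10 mz_NrKO libraries, at 1.10 and 3.21 TPM in the 8 March controls and at 8.46 to 21.4 TPM in the others, so the controls of the mutants' own date were low as well; z_NrHet of that date averaged 13.4 TPM (n = 7). Hand1, a trophoblast factor, was listed at 0 in mz_NrKO at the median but reached 21.8 TPM, and a control of 8 March was at 1.45 TPM.

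Tead4, the transcription factor that Yap1 joins to open the trophectoderm programme, varied little with the date. It was 79.7 and 134 TPM in the 8 March controls, 56.2 to 202 TPM in the 22 May controls, and 1.49 (replicate 6) to 68.0 TPM with a median of 19.8 in mz_NrKO. The log2 fold change was -2.90 without and -2.91 with the date, called without it (limma adjusted p = 0.00366) and not with it (adjusted p = 0.242). Of the 10 mutants, 9 were below every control. Against z_NrHet it was -3.16 (adjusted p = 0.00337), without the date and replicate 6 it was -2.60 (adjusted p = 0.00922), and in z_NrKO it was -2.64 (adjusted p = 0.139). Ppp1r16b, a regulatory subunit of protein phosphatase 1 named after its values were seen, was 18.6 and 19.8 TPM in the 8 March controls and 0.667 to 11.0 TPM in mz_NrKO, with no overlap. It missed the threshold with the date (-2.54, limma adjusted p = 0.107) and was called against z_NrHet (-3.48, adjusted p = 2.15e-05) and in z_NrKO (-2.95, adjusted p = 0.00796).

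The 10 largest rises without the date included Phf6, Ubr2, Paox, Pax2, Rps27rt, Zfp703, Ccnk, Hmga1b and Fam160a1. For 9 of the 10, all but Rps27rt, the date effect was called. Phf6, a chromatin-associated protein, was 620 and 888 TPM in the mz_DHet embryos of 8 March, 13.4 to 26.0 TPM in those of 22 May and 379 to 1595 TPM in mz_NrKO. The mutants thus overlapped the controls of their own date, and the log2 fold change of 3.98 without the date (limma adjusted p = 6.81e-05) was 0.63 with it (adjusted p = 0.689) and 0.05 against z_NrHet (adjusted p = 0.947). Leaving out replicate 6 gave 3.88 without and 0.52 with the date. Ccnk, a cyclin of transcriptional kinases, showed the same layout: 41.6 and 62.5 TPM on 8 March, 2.41 to 4.37 TPM on 22 May and 45.0 to 97.7 TPM in mz_NrKO. Paox, a polyamine oxidase, differed in that all 10 mz_NrKO embryos exceeded all controls, 71.1 to 323 TPM against at most 67.7, but z_NrHet averaged 107.7 ± 39.4 TPM (SD, n = 7). In mz_DKO, Phf6 was likewise 30.8 and 38.7 TPM in the 2 embryos of 22 May and 360 to 709 TPM in the 4 of 8 March. What differed between the collection days is not in the labels, and its part in the rises was not tested beyond these values.

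**Figure D4:**
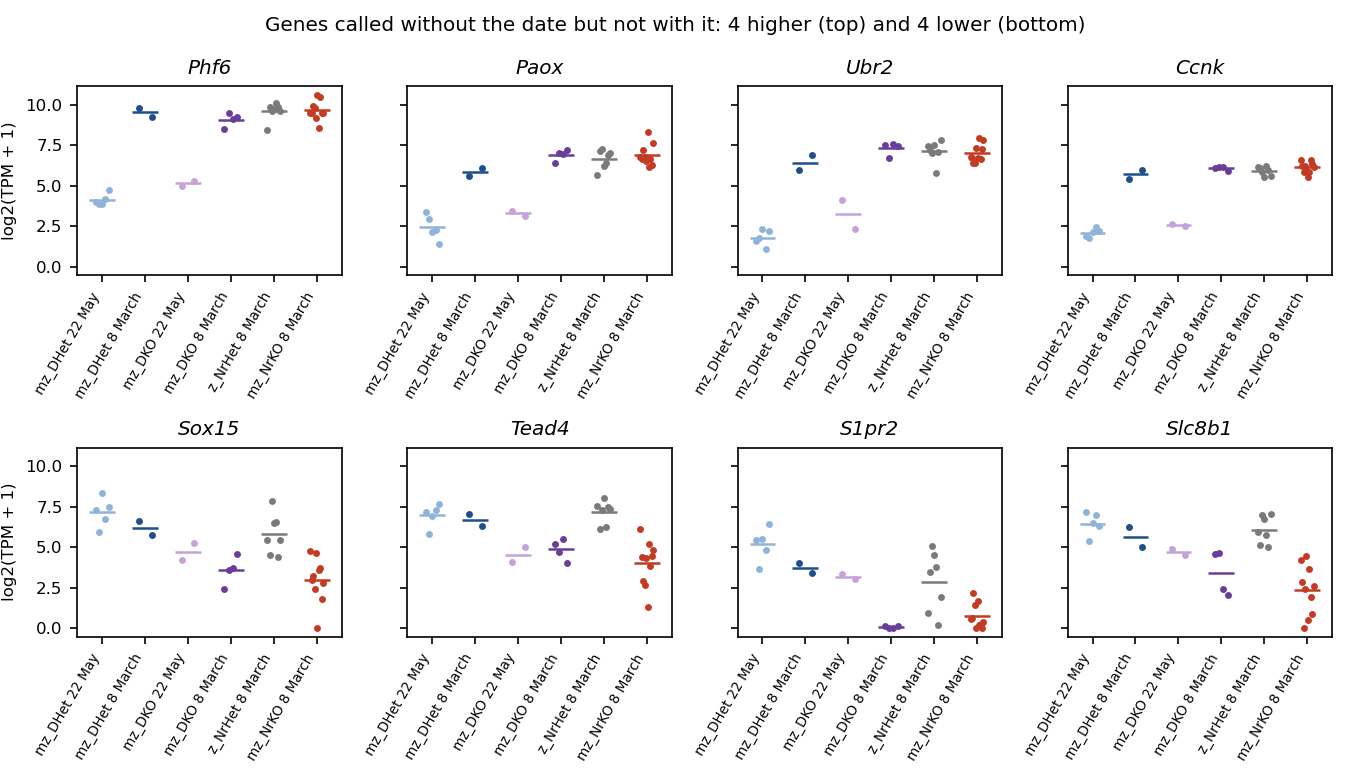
Each point is the log2(TPM + 1) of a gene in an L2C library, by genotype and collection date, with bars at the group means. In the top row mz_NrKO lies with the 8 March groups and the 22 May libraries are low (Phf6 at 13.4 to 26.0 TPM in mz_DHet); in the bottom row mz_NrKO lies below the mz_DHet libraries of both dates for Sox15, S1pr2 and Slc8b1, and for Tead4 in 9 of 10.

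The gene lists were read by counts and medians, with all 14147 genes beside them (median 0.017 with and 0.131 without the date). They were chosen with earlier results of these data known, so they are descriptions and not independent tests. Counts without the date are to be read against the 4.42% of all genes called lower and the 6.37% called higher, or 2.92% and 4.88% when replicate 6 is also left out. Of the 2-cell burst genes, 37 were tested and 0 were called with or without the date or replicate 6; their median was 0.63 with the date, 0.37 with the date and without replicate 6, and 0.29 without the date. Without both the date and replicate 6 it was 0.07, under the 0.126 of all genes. Against z_NrHet, in contrast, 4 of the 37 were higher (10.8%, where 1.3% of all genes were) with a median of 1.07. Replicate 6 had the highest summed Zscan4a to Zscan4f level of the mutants, 481.8 TPM against 13.2 to 145.6 in the others and 21.9 to 84.8 in mz_DHet. Tcstv3, a burst gene, was 1173 TPM in replicate 6 and 80.9 TPM at the median of mz_NrKO (limma adjusted p = 0.48). Of 33 genes of the major activation wave, 0 were called with the date and 1 without it, Hdac1 (-0.88, limma adjusted p = 0.031, and 0.0541 without replicate 6). In that last fit 1 other member was called lower (3.03%). Of 35 oocyte and maternal genes 0 were called with the date; their median was 0.27, and 0.17 without replicate 6. Without the date 1 was lower (2.86%) and 2 were higher (5.71%).

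Early lineage regulators had 34 tested members, 0 called with the date and 5 lower without it (14.7%), or 4 lower and 1 higher without replicate 6 too. The 5 were Sox15, Tdgf1, Tead4, Tfap2c and Dppa4. Dppa4 lost its call without replicate 6 (limma adjusted p = 0.101). Among 40 genes of Hippo signalling, polarity and adhesion, Ajuba alone was called with the date, and its call was lost without replicate 6. Without the date Ajuba and Nf2 were lower (5%) and Ctnnb1, Taok1 and Yap1 higher (7.5%), shares near those of all genes; Yap1 stood at 394 TPM in 8 March controls, 160 in 22 May controls and 460 in mz_NrKO, and its fold change with the date was 0.05. Of 33 sphingolipid genes, Cers2 was called with the date, and Acer1, an alkaline ceramidase, and S1pr2 were lower in addition without it. Acer1 averaged 0.588 ± 1.77 TPM in mz_NrKO (SD, n = 10) against 4.03 and 8.55 TPM as the means of the 8 March and 22 May controls. Members outside the fixed rule, such as Tfap2c, Nf2, Yap1 and Acer1, were named after their values were seen.

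Ribosome biogenesis had 57 tested members with 44 negative values and a median of -0.23 with the date, but 0 called. Without the date 8 were lower (14%), among them Bop1, a factor of large-subunit assembly, and Wdr43, and 7 were lower (12.3%) when replicate 6 was also left out; against z_NrHet 1 was lower, and with the date and without replicate 6, 34 of the 57 were negative and the median was -0.09. Bop1 was 279 and 295 TPM in the 8 March controls, 320 to 471 TPM in the others and 32.5 (replicate 6) to 267 TPM in mz_NrKO (-1.33 without the date, limma adjusted p = 0.00687; -1.03 with it, adjusted p = 0.473). Oxidative phosphorylation likewise had 44 of 58 members negative with a median of -0.26, 0 called with the date and 5 lower without it (8.62%), or 3 (5.17%) without replicate 6. Mitosis had 61 tested members, 0 called with the date and 5 lower (8.2%) and 2 higher (3.28%) without it; without replicate 6 too, 1 was lower and 3 were higher. Of the replication and chromatin assembly genes, 51 tested, Tlk2 was called with the date, and 3 were lower and 3 higher without it. Without replicate 6 too, 2 were lower and 2 higher. DNA repair (54 tested), telomere maintenance (28), p53 targets (25), stress response (23), cholesterol synthesis (25) and nuclear receptors (26) had 0 called with the date. Without it the lower and higher counts were 2 and 2 for DNA repair, 1 and 1 for telomere maintenance, 3 and 1 for p53 targets, 2 and 0 for stress response, 2 and 2 for cholesterol synthesis and 2 and 3 for nuclear receptors. Leaving out replicate 6 as well gave 1 and 2 for DNA repair, 0 and 1 for telomere maintenance and 3 and 1 for p53 targets. Stress response then had 1 and 0, cholesterol synthesis 2 and 1 and nuclear receptors 1 and 2. Among p53 targets Ei24, an autophagy and endoplasmic reticulum protein, was 973 and 1031 TPM in 8 March controls, 1254 to 2189 TPM in the others and 90.8 to 811 TPM in mz_NrKO, with no overlap (-1.91 without the date, limma adjusted p = 0.000204; -1.25 with it, adjusted p = 0.255). Liver and steroid targets of Nr5a2 were mostly off, with 6 of 26 listed genes tested and 0 called with or without the date.

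**Figure D5:**
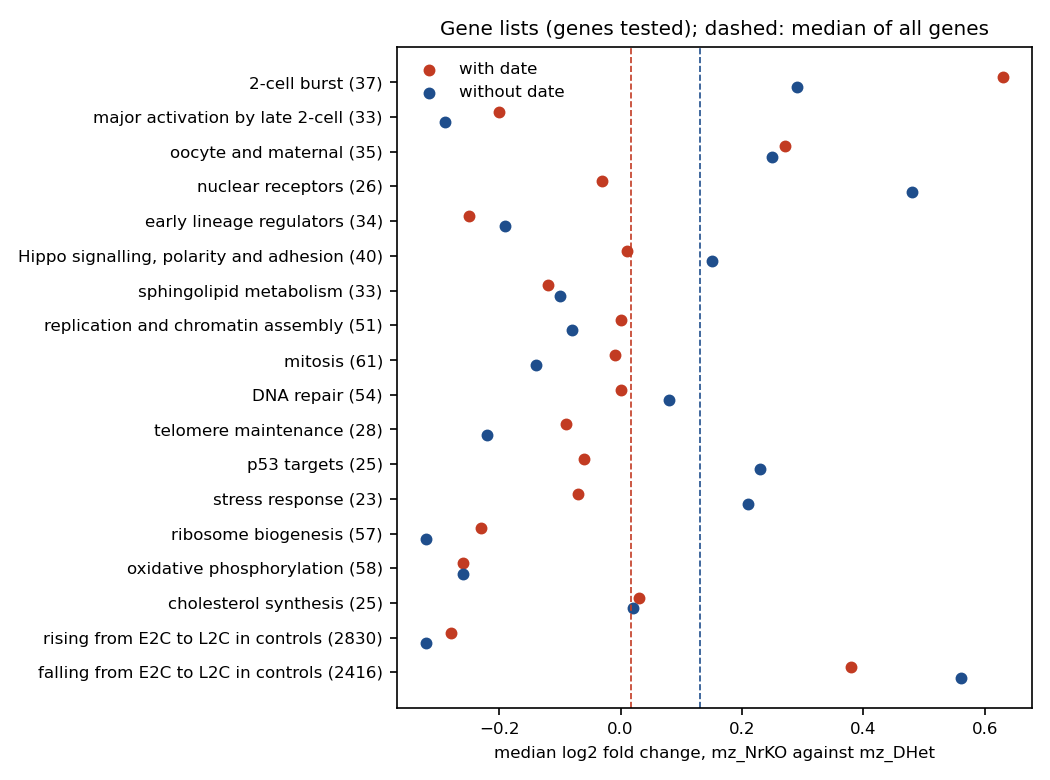
Median log2 fold change of each gene list with at least 20 tested genes, with the date (red) and without it (blue) in the fit; dashed lines mark the medians of all genes, 0.017 and 0.131. The 2-cell burst list lies highest with the date, at 0.63, and oxidative phosphorylation lies at -0.26 in both fits.

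Of the 2830 genes that rise from E2C to L2C in controls, 14 were lower (0.495%, where 0.127% of all genes were) and 0 higher in mz_NrKO with the date. Their median was -0.28, or -0.17 without replicate 6. Of the falling genes 2416 were tested and 0 were called, with a median of 0.38, or 0.27 without replicate 6. Without the date 12.8% of the rising genes were lower and 3.64% higher, or 8.16% and 3.99% without replicate 6, where all genes had 4.42% and 6.37%, or 2.92% and 4.88%. Of the falling genes 6.87% were higher and 0.166% lower, or 3.39% and 0.0414% without replicate 6; their higher share was thus near that of all genes and then below it. In z_NrKO against z_NrHet the rising genes had a median of -0.05, as did all genes there. Of them 9 were lower (0.318%, where 0.0919% of all genes were). The falling genes had a median of -0.07 there and 0 were called. The z_NrHet libraries also defined both lists, so these values are no independent reading. The part of the stage shift of replicates 3, 6 and 8 in these counts was not tested beyond leaving out replicates 6 and 8.

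Markers of other cell types were read in the same 17 libraries. Of 20 cumulus and granulosa markers, Amhr2 and Cyp19a1 reached 5 TPM in any of the 17 libraries, and Fshr, Inha, Ptx3 and Ereg were at 0 in all; the summed level was 176 to 407 TPM in mz_DHet and 66.7 to 223 TPM in mz_NrKO, almost all of it Amhr2. Amhr2 was lower without the date (-0.91, limma adjusted p = 0.00732) and not with it (adjusted p = 0.647). Of 12 sperm markers 6 were at 0 in all libraries, and sums were 19.4 to 39.2 and 13.9 to 46.6 TPM. Blood markers summed to 6.99 to 177 TPM in mz_DHet and 11.5 to 302 TPM in mz_NrKO, with 1 of 12 at 0 in all libraries, and oviduct epithelium markers, which include genes the embryo expresses such as Epcam, to 123 to 418 and 119 to 486 TPM. Few members passed the filter: 1 cumulus and granulosa, 3 sperm, 5 blood and 5 oviduct epithelium markers were tested. None of those was called with the date. Of the oviduct markers 1 was higher against z_NrHet, and 1 without both the date and replicate 6. The part of these 4 lists in the results was not tested. Within 10 Mb of Nr5a2 on chromosome 1, 93 genes were tested, 40 of them negative with the date, and 0 were called; without the date 1 was lower, the kinase gene Cdk18, and 6 were higher, which is near the 6.37% of all genes.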

How the data were processed

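Single embryos were profiled with full-length and 5′ UMI reads. The authors deposited TPM per gene and library, and the submitters' processing notes name cutadapt, STAR, RSEM, DESeq2 and mm10, without versions. For each gene the authors' deposited tables also give the log2 ratio of mutant to control and its adjusted p-value. From 55168 named genes of the full-length table (65 unnamed entries left out), those with at least 5 TPM in at least 6 L2C libraries were tested, on log2(TPM + 1) by two-sided moderated tests with a mean-variance trend (limma 3.58.1 in R 4.3.3) with group and collection date as factors. Other stages and UMI reads were fitted alike, with the smallest group of each stage as the number of libraries. Depth is unknown from TPM, and no counting interval could be given. The script was tested on simulated data. The comparison, the 22 gene lists and the alternatives were chosen with earlier results of these data known.

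Genes were named by a rule: Nr5a2 and Esrrb, all genes called with the date, the 10 largest falls and 10 largest rises called without it (at least 10 TPM in a group, same sign with the date, no predicted genes or pseudogenes), and up to 3 members of each list with the smallest p. Promoters are RefSeq windows of GRCm38.p6. Alternatives were the date, single libraries, 8 March alone, the 2 groups alone, pseudocounts, filters, scaling, library-number block, array weights, robust fitting and z_NrHet as control. A gene that this rule names and a marker gene are not reported here.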

Additional observations from a re-analysis of the deposited data

Results flagged for a closer look

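In mz_NrKO, replicate 6 stood apart from the other 9 libraries in 5 of the measures examined: the mean of genes rising from E2C to L2C (4.83, against 5.51 to 6.21), the correlation with its group's median (0.772, against 0.862 to 0.902), the summed Zscan4 level (481.8 TPM, against 13.2 to 145.6), the mean log2(TPM + 1) of the 18 genes called with the date (3.4, against 4.01 to 4.46) and Grk2 (2.53 TPM, against 15.1 to 42.7). Each was judged by its gap to the nearest library, relative to the range of the group. Replicate 5 was highest for Gm37795 (3.01 TPM, against 0 to 0.878). In mz_DHet, replicate 1 was lowest for Gm37795 (0.787 TPM, against 7.35 to 17.1) and replicate 2 for Igf2r (55.7 TPM, against 86.2 to 112). These are 8 of 60 values examined, and chance gives about 1 in 20 groups. Of all genes tested, 0 had a called difference in limma (729 below 0.05 before adjustment) between the maternal-zygotic and the zygotic knockout.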

How the results depend on the processing

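The count of genes called in mz_NrKO against mz_DHet at L2C was 18 with the date. It was 1527 without the date, 1262 with these 2 groups alone and no date, 0 with these 2 groups alone and the date, 0 on 8 March alone, 28 without the filter, 48 with array weights (44 lower, 4 higher), 426 with z_NrHet as the control, 1104 without the date and replicate 6, and 784 without the date and replicates 6 and 8. Leaving out single libraries gave 4 to 19, the 4 and 8 coming without mz_DHet replicates 6 and 7. The fit with a replicate block for the library number called 4; same-numbered libraries of the groups did not deviate together (residual correlations -0.049 to 0.114 over 7 pairs, and no pair was its own best match), so the number pairs nothing. Pseudocounts of 0.1 and 5, a 10 TPM filter, median-of-ratios scaling and robust fitting gave 15 to 21, and the fit with the date and without replicates 6 and 8, chosen after seeing the data like the other 2 that combine settings, gave 15. All of the 18 that were tested stayed negative under every alternative.

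For z_NrKO against z_NrHet the 14 calls were 8 without the date and 9 with a pseudocount of 0.1. For the difference of the mz and z effects the 0 calls were 5 without the filter. For mz_NrKO against mz_EKO the 25 calls were 14 with a pseudocount of 0.1, 12 without the filter and 38 without replicate 6 (15 of them higher). At E2C the 674 calls were 411 without the filter, and median-of-ratios scaling turned the split from 587 lower and 87 higher to 556 and 365. At 4C the 88 calls were 26 without the filter and 27 to 91 with single libraries left out, lowest without mz_NrKO replicates 1 (31) or 2 (27) or mz_DHet replicates 4 (54), 5 (42) or 6 (32). At 8C the 3075 calls stayed between 2256 and 3209, and the 1070 calls of the date stayed between 936 and 1179. In UMI reads the 0 calls were 338 without the date and 10 without the filter. The causes were not tested. Of the 80 other genes named or examined, 36 were called without the date and 16 against z_NrHet, and 0 changed sign while called. TPM keeps no depth, so what depth limits could not be measured.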
